A study of Mus musculus with 16 samples.

Results

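Malat1, Neat1, Kcnq1ot1, Rn7sk, Rmrp, Rpph1, Terc and Gm42418 are RNAs that work, or are thought to work, without being translated. They are 8 of the 46983 genes in the count table. The first 7 were selected as untranslated RNAs, and Gm42418 was chosen by its measured values, a higher level after RAM siRNA in total cytoplasmic RNA and a lower level in polysomes. The values of Gm42418 are therefore given as a description in every comparison, without a test. The RNA came from 46C embryonic stem cells (ESCs), a mouse line of the 129Ola strain that carries GFP under the control of Sox1, grown with LIF. Cells were transfected for 48 hr with a siRNA against RAM, the activating subunit of the mRNA cap methyltransferase RNMT, or with a control siRNA that has no target. From each culture, total RNA of the lysate (input) and RNA of the pooled polysomal fractions 17 to 22 of a sucrose gradient were sequenced. There were 4 libraries in each of the 4 groups, all from cells treated with cycloheximide, which holds ribosomes on mRNA, and all depleted of ribosomal RNA. A single cell line was used, and the lysate was made with the detergent Triton X-100 and is labelled as cytoplasmic, so its content of nuclear RNA was not measured.

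Malat1 and Neat1 are long RNAs of nuclear speckles and paraspeckles, and Kcnq1ot1 is an imprinted antisense RNA that silences neighbouring genes. All of these are made by RNA polymerase II and capped at the start, and so is Terc, the template RNA of telomerase. Rn7sk (7SK) holds the elongation factor P-TEFb inactive, Rpph1 is the RNA of RNase P, which cuts the leader from tRNA precursors, and Rmrp is the RNA of the related RNase MRP, which acts on ribosomal RNA precursors. These RNAs are made by RNA polymerase III and do not receive the cap that RNMT and RAM methylate. Gm42418 is an annotated gene in a ribosomal RNA repeat, and RefSeq lists its name as a synonym of Rn18s-rs5, a pseudogene related to 18S ribosomal RNA.

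Stretches of 3 of these RNAs are shown because they carry the function by which the RNA is known. They were read 5′ to 3′ from the GENCODE M21 transcripts on GRCm38, all on the minus strand. The stretch of Terc spans bases 18 to 47 of the transcript (chr3:96414813-96414842), and the capitals mark the letters CTAACCC, which match the telomere repeat that telomerase copies.
Terc: ggcctcggcacCTAACCCtgattttcatta
The stretch of Rn7sk is its first 30 bases (chr9:78175604-78175633), and the capitals mark the first GATC, in the 5′ hairpin that HEXIM1 binds. GATC occurs 3 times in the transcript.
Rn7sk: ggatgtgagggcGATCtggctgcgacatct
The stretch of Malat1 spans bases 6673 to 6702 (chr19:5795971-5796000), and the capitals mark the A-rich tract at the end of the mature RNA, beyond which RNase P cuts off a small tRNA-like RNA. Rpph1 is the catalytic part of that enzyme.
Malat1: tAAAAAAAAAAAAGCAAAAgacgctggtgg

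The genes lie on several chromosomes of GRCm38. Malat1 (ENSMUSG00000092341, chr19:5795690-5802672) and Neat1 (ENSMUSG00000092274, chr19:5824708-5845478) are neighbours on the same strand and are annotated as single-exon transcripts of 6983 and 20771 bases. Kcnq1ot1 (ENSMUSG00000101609, chr7:143203458-143296549) is 93092 bases long and lies within Kcnq1, on the other strand. Kcnq1 itself had at most 5 counts in any input library. Rn7sk (ENSMUSG00000065037, chr9:78175303-78175633) is 331 bases long, and 11 other genes with similar transcripts together held 0.167% as many counts. Rmrp (ENSMUSG00000088088, chr4:43492788-43493058) is 271 bases long and overlaps Ccdc107 by 159 bases on the opposite strand. Rpph1 (ENSMUSG00000092837, chr14:50807449-50807767) is 319 bases long, and 284 of these lie in Ccnb1ip1 on the same strand. Terc (ENSMUSG00000064796, chr3:96414437-96414859) is 423 bases long, with no similar transcript found. Gm42418 (ENSMUSG00000098178, chr17:39846958-39848788) is 1831 bases long and lies wholly within the ribosomal RNA gene CT010467.1 on the opposite strand. How reads in overlaps and reads with several matches were counted is not given in the sources used here. The levels of Rn7sk, Rmrp, Rpph1 and Gm42418 are therefore uncertain in this respect.

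Libraries held between 16647523 and 20147833 counts, and Ramac, which encodes RAM, had 197 to 206 counts in control input and 46 to 58 in RAM siRNA input. In polysomes, Ramac had 122 to 256 counts in control libraries and 5 to 45 in RAM siRNA libraries. All 8 ESC markers examined (Pou5f1, Nanog, Sox2 and others) were detected in every group, with a summed level between 2242 and 4604 CPM. CPM give the counts of a gene relative to the library total, after scaling of the libraries by edgeR's TMM method. Markers of other cell types summed to at most 101.0 CPM for 4 neural genes, 24.58 CPM for 3 trophoblast genes, 10.55 CPM for 4 endoderm genes, 7.164 CPM for 3 mesoderm genes, 2.751 CPM for 4 fibroblast genes and 0.422 CPM for 2 blood genes, and the haemoglobin gene Hbb-bs was at 0 counts in all 16 libraries.

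The 8 RNAs were a visible part of the cytoplasmic input libraries and a small part of the polysome libraries. They took 3.65% to 4.33% of the counts in control input and 4.26% to 5.13% in RAM siRNA input. In polysomes they took 0.0681% to 0.330% of control libraries and 0.0783% to 0.156% of RAM siRNA libraries, so input and polysome libraries did not overlap.

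Rmrp had 14930, 17630, 15700 and 14300 CPM in replicates 1 to 4 of control input. Rn7sk had 10390, 13820, 13150 and 12450 CPM there, Malat1 5055, 4900, 7079 and 3911 CPM, and Rpph1 2886, 3089, 2548 and 3816 CPM. Gm42418 had 1310, 1676, 1369 and 1249 CPM in the same libraries. Terc, the least abundant of the short RNAs, had 198.3, 256.9, 314.8 and 206.8 CPM. Neat1 had 114.4, 126.6, 153.3 and 96.75 CPM, and Kcnq1ot1 had 87.24, 58.37, 105.7 and 71.76 CPM. Replicate 3 was the highest control input library for Malat1, Neat1, Kcnq1ot1 and Terc, and replicate 4 was the highest for Rpph1.

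Per kilobase of transcript, the level in control input was highest for Rmrp (57710 ± 5327 CPM per kb, SD, n = 4), followed by Rn7sk (37620 ± 4483) and Rpph1 (9670 ± 1680), and none of these ranges overlapped the next. Gm42418 (765.0 ± 103.7 CPM per kb), Malat1 (749.8 ± 190.3) and Terc (577.4 ± 127.0) had neighbouring ranges that overlapped, so their order was not resolved. Neat1 (5.91 ± 1.14 CPM per kb) and Kcnq1ot1 (0.868 ± 0.219) were lowest, without overlap. Each level was divided by the full annotated exon length, from 271 bases for Rmrp to 20771 for Neat1 and 93092 for Kcnq1ot1. Which isoforms were present was not measured, so the order holds for these lengths only. The order of the means was the same in RAM siRNA input.

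**Figure D1:**
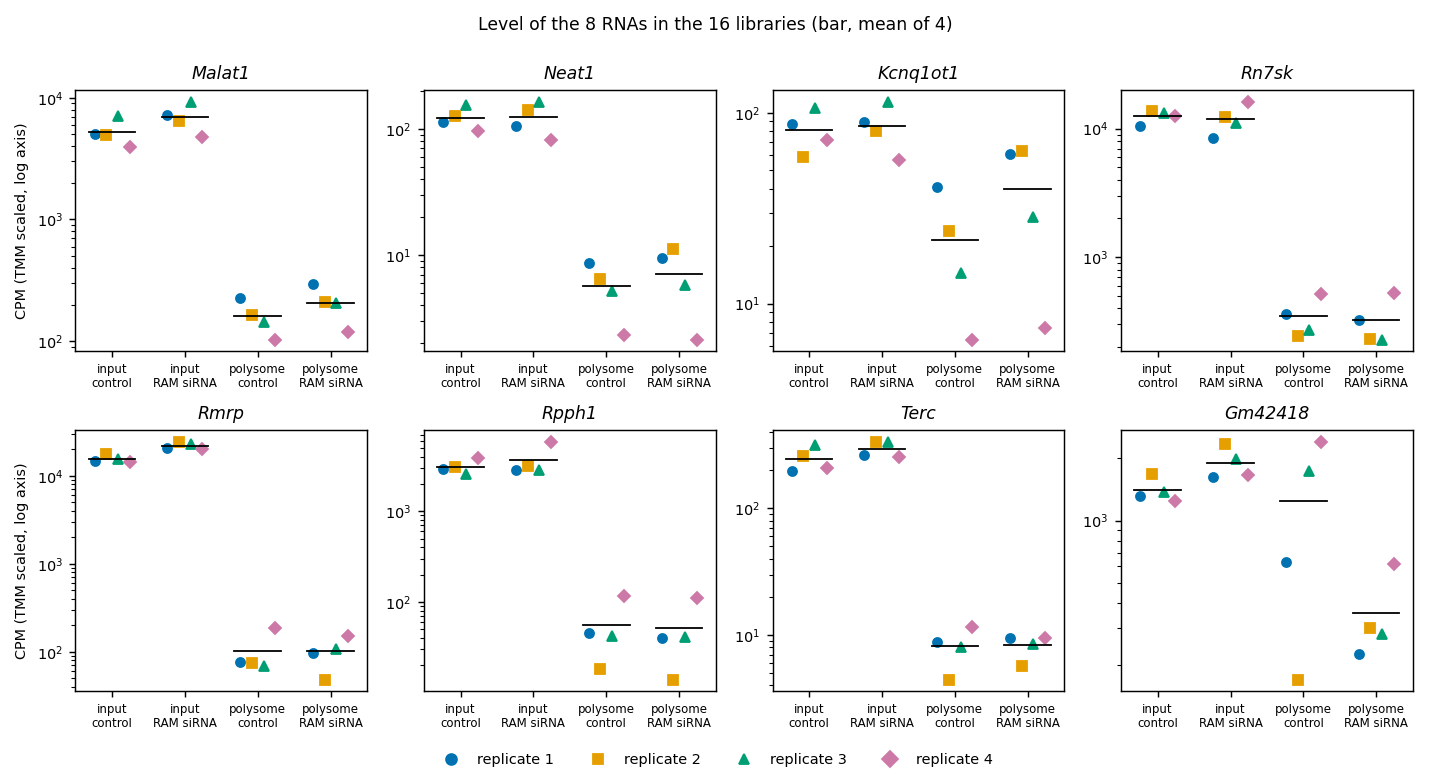
Level of each of the 8 RNAs in the 16 libraries, as TMM-scaled CPM on log axes that differ between panels. Points are libraries, coloured by replicate number, and bars are the means of 4. In polysomes, Malat1, Neat1 and Kcnq1ot1 are lowest in replicate 4, and Rn7sk, Rmrp, Rpph1 and Terc are highest in replicate 4.

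The first comparison set the level of each RNA in polysome libraries against its level in input libraries, in control cells. Both levels are relative to the library total. Their ratio is therefore not the part of an RNA's molecules that was on polysomes. The mRNA Actb, for example, stood at 127.1% to 173.6% of input. Malat1, Neat1, Kcnq1ot1, Rn7sk, Rmrp, Rpph1 and Terc were lower in polysomes, from 3.76-fold for Kcnq1ot1 to 154-fold for Rmrp. Thus all 7 RNAs that were tested were called lower, where 33% of the 12805 genes tested were called lower. The median log2 fold change of the 7 was -5.03, against 0.03 over all genes tested. All calls are from edgeR's quasi-likelihood test at an adjusted p of 0.05 or less, and every one of the 8 RNAs passed the filter on low counts. In the groups themselves, the 7 RNAs had polysome libraries wholly below the input libraries, as did 30.4% of all genes. For each of them the exact permutation test gave p = 0.0286, its lowest possible value with 4 libraries in each group. That test permuted the libraries freely and took no account that input and polysome libraries came from the same cultures.

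The RNase MRP RNA Rmrp showed the widest gap. Its polysome level was 77.37, 75.37, 69.14 and 184.4 CPM in replicates 1 to 4, which was 0.518%, 0.428%, 0.441% and 1.29% of input. On the log2 scale the change was -7.27 (SE, the standard error of the fit, 0.38; adjusted p = 7.75e-08, edgeR quasi-likelihood). Only 0.0156% of the genes tested had a lower fold change. Rpph1, the RNase P RNA, had 45.05, 18.43, 42.07 and 117.5 CPM, and its log2 fold change was -5.79 (SE 0.51, adjusted p = 2.46e-06). Replicate 4 was again the highest.

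Rn7sk and Terc gave smaller gaps than Rmrp. Rn7sk had 359.7, 242.7, 270.5 and 518.2 CPM in control polysomes, and its log2 fold change was -5.16 (SE 0.28, adjusted p = 8.70e-08). Terc had 8.771, 4.449, 8.008 and 11.6 CPM, from 84 to 204 counts per library, and its log2 fold change was -4.90 (SE 0.28, adjusted p = 1.53e-07). Both RNAs were lowest in replicate 2 and highest in replicate 4.

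Of the long RNAs, Malat1 had 227.8, 165.9, 144.5 and 103.2 CPM in control polysomes, a log2 fold change of -5.03 (SE 0.29, adjusted p = 1.55e-07). Neat1 had 8.663, 6.462, 5.189 and 2.331 CPM, a log2 fold change of -4.43 (SE 0.32, adjusted p = 6.43e-07). Here replicate 4 was the lowest for both, the opposite of the short RNAs.

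Kcnq1ot1 stood apart among the long RNAs. Its polysome level was 40.72, 24.05, 14.49 and 6.481 CPM, or 46.7%, 41.2%, 13.7% and 9.03% of input in replicates 1 to 4. The log2 fold change was -1.91 (SE 0.42, adjusted p = 0.00169), and 4.50% of the genes tested had a lower value. Each replicate was below its input, but the percentage of input was several times larger in replicates 1 and 2 than in replicates 3 and 4.

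Gm42418 had 631.4, 169.5, 1746 and 2404 CPM in control polysomes, or 48.2%, 10.1%, 127.5% and 192.5% of input. It was thus below input in replicates 1 and 2 and above it in replicates 3 and 4. The fitted log2 fold change was -0.18 (SE 0.56). In replicates 1 and 2 alone it was -1.90, and in replicates 3 and 4 alone it was 0.66.

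**Figure D2:**
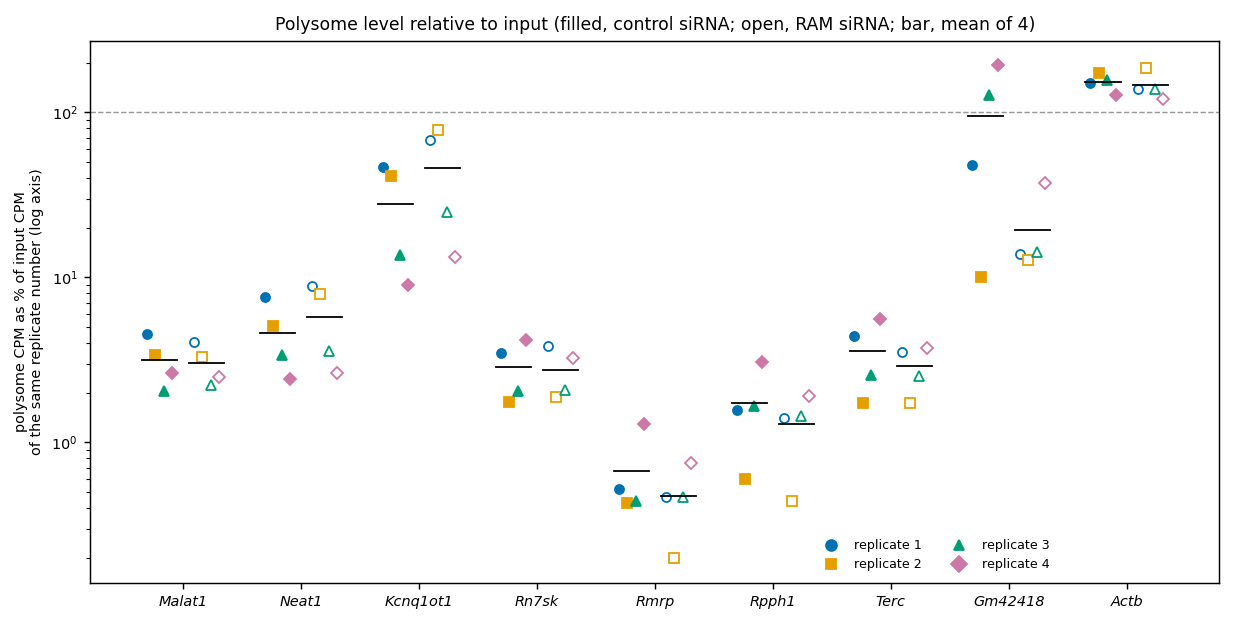
Polysome CPM as a percentage of the input CPM of the same replicate number, on a log axis, for the 8 RNAs and Actb, an mRNA shown for reference. Filled symbols are control siRNA, open symbols are RAM siRNA, bars are means of 4 and the dashed line is 100%. Rmrp lies at 0.199% to 1.29%, and Gm42418 spans 10.1% to 192.5% in control cells.

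Among 35 other untranslated RNAs, 31 were listed in the table and 12 passed the filter. All 12 were lower in polysomes than in input in control cells (median log2 fold change -3.90). The filter asks for 1 CPM or more in 10 of the 16 libraries, so it leaves out RNAs that were nearly absent from polysomes. One of these, Rnu12, the U12 RNA of the minor spliceosome, had 368 to 466 counts in control input and 2 to 4 in control polysomes. Among the 12 that passed, the largest differences were those of Scarna6 (-6.09, SE 0.29, adjusted p = 3.78e-08), a guide RNA of Cajal bodies, and Meg3 (-5.37, SE 0.20, adjusted p = 9.39e-09), an imprinted long RNA. Firre (-4.77) and Scarna13 (-4.35) followed. Lncenc1, a long RNA abundant in ESCs, had the smallest at -1.71.

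The mRNAs of proteins that bind or process these RNAs lay in both directions, where 34.4% of all genes were called higher and 33% lower. Of 11 mRNAs for proteins of RNase P and RNase MRP, 6 were higher and 1 was lower in polysomes, with a median log2 fold change of 0.61. Rpp25l (1.19), Pop4 (1.17), Rpp40 (1.05) and Rpp30 (0.97) were highest, and Pop1, the largest subunit, was lower (-0.74). Of 9 mRNAs for telomerase proteins, 5 were higher and 3 were lower. Wrap53 (0.87), which brings telomerase to Cajal bodies, and Gar1 (0.65) were among those higher, and Tep1 (-2.07), Nop10 (-1.28) and Tert (-0.42), the reverse transcriptase, were lower. For 7SK, the mRNAs of Cdk9 (0.68) and of the RNA-binding protein Larp7 (0.64) were higher, as was Hexim2 (0.43), while the cyclins Ccnt1 (-1.37) and Ccnt2 (-1.35) were lower, and 2 of 7 did not pass. Of 11 paraspeckle protein mRNAs, 5 were lower, led by Rbm14 (-0.81) and Sfpq (-0.70), and Hnrnpk (0.61) and Nono (0.52) were higher. Of 7 mRNAs for factors that process Malat1 or related RNAs, Elac2 (0.97) and Drosha (0.56) were higher and Dgcr8 (-1.81) was lower. Of 5 neighbours of Kcnq1ot1 tested, 4 were higher: Slc22a18 (1.62), Cd81 (1.34), Cdkn1c (1.06) and Tssc4 (0.33). These values are log2 fold changes of polysome against input in control cells.

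In RAM siRNA cells, Malat1, Neat1, Rn7sk, Rmrp, Rpph1 and Terc were again far lower in polysomes than in input. This made 6 of 7 called lower, against 26.2% of the genes tested. Rmrp had 97.48, 48.31, 106.5 and 151.9 CPM in polysomes against 20930, 24280, 22740 and 20200 CPM in input. Its log2 fold change was -7.77 (SE 0.43, adjusted p = 7.16e-07), and 0.00781% of the genes had a lower value, which is 1 gene of those tested. The others lay between -6.16 for Rpph1 (SE 0.63, adjusted p = 3.66e-05) and -4.11 for Neat1 (SE 0.46, adjusted p = 5.70e-05), with Rn7sk at -5.19, Terc at -5.16 and Malat1 at -5.06. All 12 other untranslated RNAs were lower as well.

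Kcnq1ot1 had 60.53, 62.7, 28.29 and 7.472 CPM in RAM siRNA polysomes, or 67.7%, 78.1%, 24.8% and 13.2% of input. It was below input in all 4 replicates, but its groups overlapped and the log2 fold change of -1.10 (SE 0.51) did not pass the test (adjusted p = 0.0910). With the replicate number as a block it was -1.43 and passed (adjusted p = 0.0177), where 30.5% of genes were called lower. It also passed without polysome replicate 2 (-1.41, adjusted p = 0.0173) and in replicates 3 and 4 alone (-2.25, adjusted p = 0.00511). The other 21 of 24 alternatives did not pass, and the values over all 24 ran from -2.25 to -0.46. Gm42418 had 226.4, 301.3, 283.0 and 616.3 CPM, or 13.9%, 12.8%, 14.3% and 37.1% of input. Its fitted log2 fold change, given as a description, was -2.42 (SE 0.33).

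**Figure D3:**
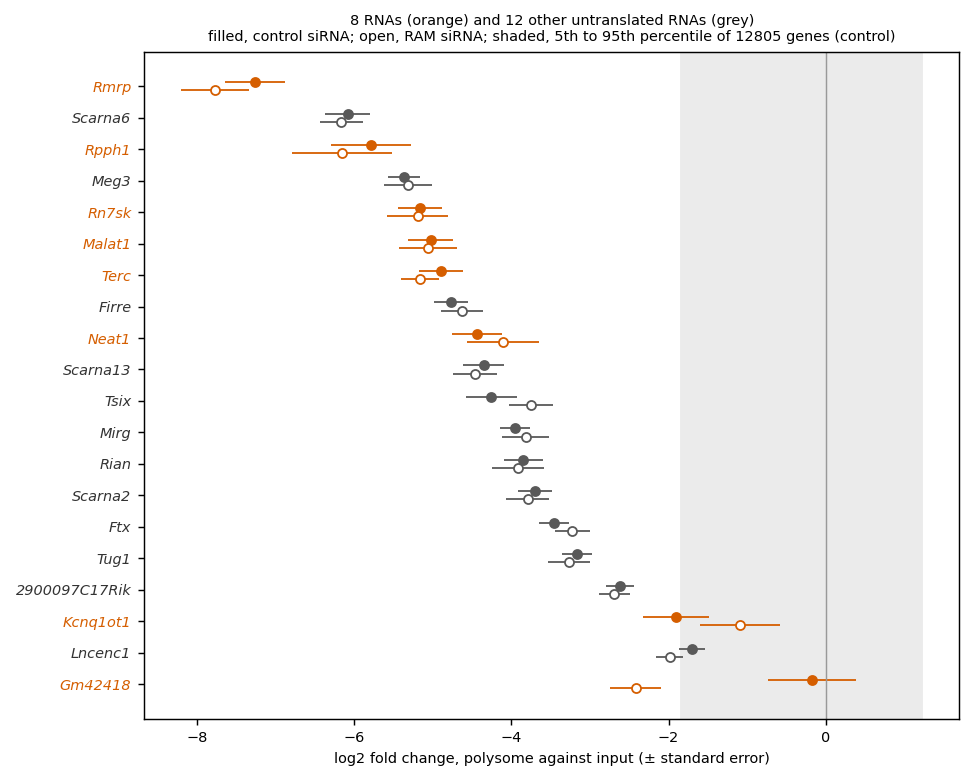
Log2 fold change of polysome against input with its SE for the 8 RNAs (orange) and 12 other untranslated RNAs (grey), ordered by the value in control cells. Filled symbols are control siRNA, open symbols are RAM siRNA, and the shaded band holds the 5th to the 95th percentile of all genes tested in control cells. Rmrp lies farthest to the left, at -7.27 and -7.77, and Gm42418 is at -0.18 with control siRNA and -2.42 with RAM siRNA.

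The next comparison asked how RAM siRNA changed the 8 RNAs in cytoplasmic input. Rmrp rose by 1.41-fold, and it was the single RNA called among the 7 that were tested. For comparison, 7.14% of all genes were called higher and 12.9% in either direction. Rmrp had 20930, 24280, 22740 and 20200 CPM after RAM siRNA against 14930, 17630, 15700 and 14300 CPM in control cells. The groups did not overlap, as was the case in the higher direction for 9.39% of all genes. The log2 change was 0.49, 0.46, 0.53 and 0.50 in replicates 1 to 4, and the fitted log2 fold change was 0.49 (SE 0.11, adjusted p = 0.0124, edgeR quasi-likelihood). The exact permutation test, which took no account of the replicate number, gave p = 0.0286, the smallest possible. Rmrp lost the call without control input replicate 1 (0.47, adjusted p = 0.0558) and in a fit that took the spread from all 16 libraries (0.49, adjusted p = 0.671). A change in the number of cells of a type cannot be told apart from a change in RNA per cell in such samples.

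Malat1 had 7265, 6473, 9217 and 4786 CPM in RAM siRNA input, higher than the control library of the same number in 4 of 4 replicates. The groups overlapped, and its log2 fold change was 0.41 (SE 0.20, adjusted p = 0.210). Terc had 265.6, 330.7, 333.6 and 253.6 CPM, also higher in 4 of 4 replicates, with a log2 fold change of 0.28 (SE 0.14, adjusted p = 0.235). Rpph1 had 2856, 3185, 2833 and 5796 CPM, with a log2 fold change of 0.25 (SE 0.21, adjusted p = 0.488), and the log2 change of replicate 4 was 0.60 while those of the others were -0.02, 0.04 and 0.15. Without RAM siRNA replicate 4 the value for Rpph1 was -0.06.

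Libraries of the same replicate number deviated together from their group means. With the replicate number as a block, 4 of 7 RNAs were called higher in input, where 20.6% of all genes were called higher and 39.4% in either direction. Beside Rmrp (0.50, adjusted p = 1.36e-07) these were Malat1 (0.40, adjusted p = 2.00e-06), Terc (0.29, adjusted p = 8.61e-05) and Rpph1 (0.20, adjusted p = 0.0285). Those called were the capped RNAs Malat1 and Terc and the polymerase III RNAs Rmrp and Rpph1. The capped RNAs Neat1 and Kcnq1ot1 and the polymerase III RNA Rn7sk were not called. A part of the cap in these values was not tested. Malat1 also passed without RAM siRNA replicate 4 (0.55, adjusted p = 0.0385), and Terc without control replicate 3 (0.42, adjusted p = 0.0430).

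Neat1, Kcnq1ot1 and Rn7sk did not pass either test in input. Neat1 had 106.0, 141.8, 163.3 and 81.25 CPM after RAM siRNA, a log2 fold change of 0.00 (SE 0.19). Kcnq1ot1 had 89.37, 80.26, 113.8 and 56.63 CPM, a log2 fold change of 0.08 (SE 0.20). Rn7sk had 8499, 12240, 11030 and 16110 CPM, a log2 fold change of -0.06 (SE 0.17), and was lower in replicates 1 to 3 and higher in replicate 4. The direction of these 3 small values depended on the scaling or on the libraries used.

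Gm42418 had 1634, 2357, 1985 and 1663 CPM in RAM siRNA input, against 1310, 1676, 1369 and 1249 CPM in control input. It was higher in 4 of 4 replicates, although the groups overlapped, and its log2 fold change was 0.45 (SE 0.13). Another annotated RNA linked to ribosomal RNA, Gm26917, rose in input with a log2 fold change of 0.53 (SE 0.12, adjusted p = 0.0153), from 8150 ± 950.3 to 11740 ± 1536 CPM (SD, n = 4). The mitochondrial ribosomal RNAs mt-Rnr1 (0.16) and mt-Rnr2 (0.14) and CT010467.1 (-0.25) did not pass. With the replicate block mt-Rnr1 (0.16, adjusted p = 0.00962) and mt-Rnr2 (0.14, adjusted p = 0.0409) were called higher and CT010467.1 (-0.22, adjusted p = 0.0131) lower.

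Marker genes of cell types moved in input as well. The 8 ESC markers summed to 2600 to 2843 CPM in control input and to 2242 to 2456 CPM after RAM siRNA, without overlap. Of these 8, Dppa5a (-0.36, adjusted p = 0.00675), Nanog (-0.29, adjusted p = 0.0225) and Esrrb (-0.25, adjusted p = 0.0302) fell, where 5.81% of all genes were called lower. With the replicate block 7 of 8 were called lower, where 18.7% of all genes were. The 4 endoderm markers summed to 3.595 to 4.897 CPM in control input and to 5.569 to 6.846 CPM after RAM siRNA. Only 2 of them passed the filter. Gata6, a transcription factor of primitive endoderm, rose (0.61, adjusted p = 0.0198), where 7.14% of all genes were called higher. The other did not pass the test (0.49, adjusted p = 0.351). Of 4 neural markers, 1 was called lower, Pax6 (-0.50, adjusted p = 0.0484), and none higher. Of the mesoderm and the trophoblast markers 1 each was tested, and neither was called without the block. The part of these marker changes in the input values of Rmrp and the other RNAs was not tested.

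In the lists of partner genes, 3 genes of the telomerase, paraspeckle, RNA processing, RNase P and 7SK lists were called in input without the block, where 7.14% of all genes were called higher and 5.81% lower. Nop10, a protein of the box H/ACA particle to which Terc belongs, rose from 103.7 ± 3.96 to 142.9 ± 8.73 CPM (SD, n = 4), a log2 fold change of 0.46 (SE 0.07, adjusted p = 0.00134), 1 of 9 telomerase genes. Pspc1, a paraspeckle protein, fell from 49.06 ± 0.945 to 41.01 ± 1.56 CPM, a log2 fold change of -0.26 (adjusted p = 0.0190), 1 of 11. Elac2, the nuclease that trims the small RNA cut from Malat1, rose from 125.5 ± 6.70 to 162.7 ± 15.04 CPM, a log2 fold change of 0.37 (adjusted p = 0.0101), 1 of 7. With the replicate block, 2 of 9 telomerase genes were called higher and 1 lower, 2 of 11 paraspeckle genes higher and 2 lower, and 2 of 7 RNA processing genes higher and 2 lower. In that fit 3 of 11 RNase P and RNase MRP protein genes and 1 of 7 genes of 7SK and P-TEFb were called lower and none higher, where 20.6% of all genes were called higher and 18.7% lower. Of 5 neighbours of Kcnq1ot1, Phlda2 (0.60, adjusted p = 0.0433) and Cd81 (0.36, adjusted p = 0.0364) rose. Kcnq1ot1 itself had a value of 0.08. Of the 12 other untranslated RNAs, Lncenc1 fell (-0.25, adjusted p = 0.0459) and none was called higher. With the replicate block 8 of them were called higher, among them Firre (0.48) and Mirg (0.35), and 2 lower.

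**Figure D4:**
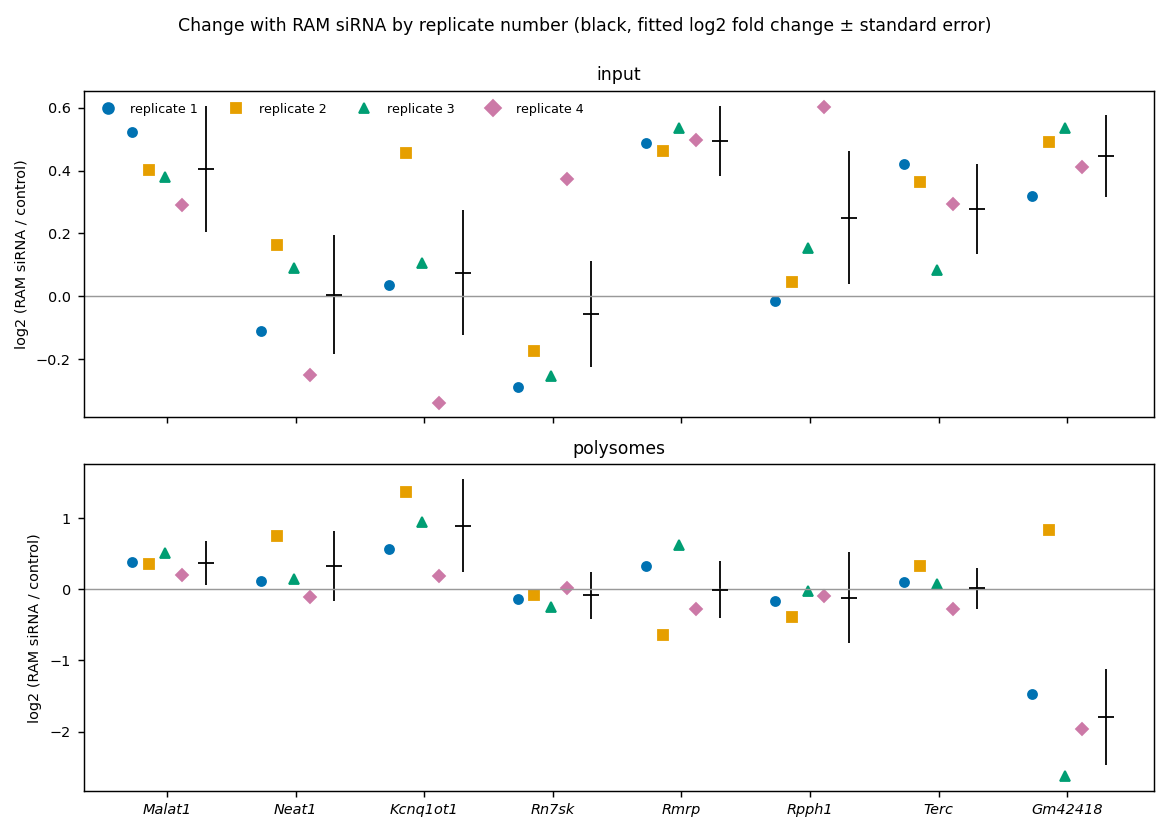
Log2 of the RAM siRNA CPM over the control CPM for each replicate number, in input (upper panel) and polysomes (lower panel, with a wider axis), for the 8 RNAs. Black bars are the fitted log2 fold change with its SE. Rmrp lies between 0.46 and 0.53 in input, and Gm42418 is above 0 in all 4 replicates in input and below 0 in replicates 1, 3 and 4 in polysomes.

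In polysomes, none of the 7 RNAs was called between RAM siRNA and control cells by the edgeR quasi-likelihood test, where 0.0234% of all genes were called in either direction. None of the 7 had an unadjusted p under 0.05, the lowest being 0.204 for Kcnq1ot1, and the likelihood ratio test, limma-voom and DESeq2 also called 0 of 7. All 7 groups overlapped. Kcnq1ot1 had the largest difference, from 40.72, 24.05, 14.49 and 6.481 CPM in control cells to 60.53, 62.7, 28.29 and 7.472 CPM after RAM siRNA. It was higher in 4 of 4 replicates, with a log2 fold change of 0.89 (SE 0.65, adjusted p = 0.831). With the replicate block it was 0.82 (SE 0.15, adjusted p = 0.000839) and was called. Malat1 had 295.6, 211.9, 204.9 and 118.7 CPM after RAM siRNA, higher in 4 of 4 replicates, with a log2 fold change of 0.37 (SE 0.31, adjusted p = 0.880). With the block it was 0.36 (adjusted p = 0.0393) and was called as well. Thus 2 of 7 were called with the block, where 15.2% of all genes were called in either direction and 8.22% were called higher.

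The other long RNA, Neat1, had 9.405, 11.18, 5.807 and 2.135 CPM in RAM siRNA polysomes, a log2 fold change of 0.33 (SE 0.49). Rn7sk had 325.5, 230.2, 228.4 and 524.6 CPM (-0.09, SE 0.33), Rpph1 40.09, 13.98, 41.2 and 110.1 CPM (-0.12, SE 0.64), and Terc 9.405, 5.731, 8.461 and 9.489 CPM (0.01, SE 0.29). Rmrp, which rose in input, was at -0.01 (SE 0.40) in polysomes, higher in replicates 1 and 3 and lower in replicates 2 and 4. The SEs in polysomes were larger than those in input for each of the 8 RNAs.

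Within a siRNA, the polysome level of an RNA differed between replicate numbers by more than it differed between siRNAs of the same number in several cases. Rpph1 in control polysomes went from 18.43 CPM in replicate 2 to 117.5 CPM in replicate 4, and in RAM siRNA polysomes from 13.98 to 110.1 CPM in the same replicates. Kcnq1ot1 was lowest in replicate 4 under both siRNAs. In polysomes, libraries of the same number correlated over all genes in their deviation from the group means with r between 0.541 and 0.897.

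Gm42418 had a polysome level of 1238 ± 1021 CPM in control cells and 356.7 ± 176 CPM after RAM siRNA (SD, n = 4), a log2 fold change of -1.79 (SE 0.68). In counts, control libraries had 11661, 3200, 30962 and 42275 and RAM siRNA libraries 3755, 5258, 5652 and 10392. It was lower in replicates 1, 3 and 4 and higher in replicate 2, and the groups overlapped. With the replicate block the value was -1.38. Without control replicate 4 it was -1.25. In replicates 1 and 2 alone it was -0.60, and in replicates 3 and 4 alone -2.21. The SD of the control libraries was thus close to their mean.

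Other genes linked to ribosomal RNA were read beside Gm42418. Lars2, which encodes the mitochondrial leucyl-tRNA synthetase and stood on the list of genes in or with homology to ribosomal RNA, had 1707, 994, 4067 and 7043 counts in control polysomes and 810, 1215, 989 and 1499 after RAM siRNA. Like Gm42418 it was lowest in replicate 2 and highest in replicate 4 of the control libraries, and was lower after RAM siRNA in replicates 1, 3 and 4 and higher in replicate 2. Its log2 fold change was -1.59 (SE 0.55, adjusted p = 0.389). With the block it was -1.26 (adjusted p = 0.00415), where 15.2% of all genes were called in either direction. Lars2 was named after its values were seen, so these p-values describe a gene picked by its outcome. In input Lars2 had 555 to 818 counts in control libraries and 544 to 694 after RAM siRNA, a log2 fold change of 0.00 (SE 0.11).

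Gm26917, also lowest in replicate 2 of the control polysomes, spanned a narrower range there, 820.5 to 1602 CPM. After RAM siRNA it was higher in replicates 1, 3 and 4 and lower in replicate 2, the reverse of Gm42418. It had 28841, 15492, 19307 and 28175 counts in control polysomes and 35161, 12808, 29749 and 30838 after RAM siRNA, a log2 fold change of 0.28 (SE 0.34, adjusted p = 0.958). CT010467.1, on the strand opposite to Gm42418, had 4753, 3644, 3512 and 3536 counts in control polysomes and 4189, 2263, 2667 and 2619 after RAM siRNA, a log2 fold change of -0.34 (SE 0.24, adjusted p = 0.813). In CPM it was lower after RAM siRNA in 4 of 4 replicates, and with the replicate block it was called (-0.39, adjusted p = 0.0392). CT010467.1 was also named after its values were seen. The mitochondrial ribosomal RNAs mt-Rnr1 and mt-Rnr2 were at 0.32 and 0.32. The part of ribosomal RNA left in the libraries in the values of Gm42418 was not tested.

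**Figure D5:**
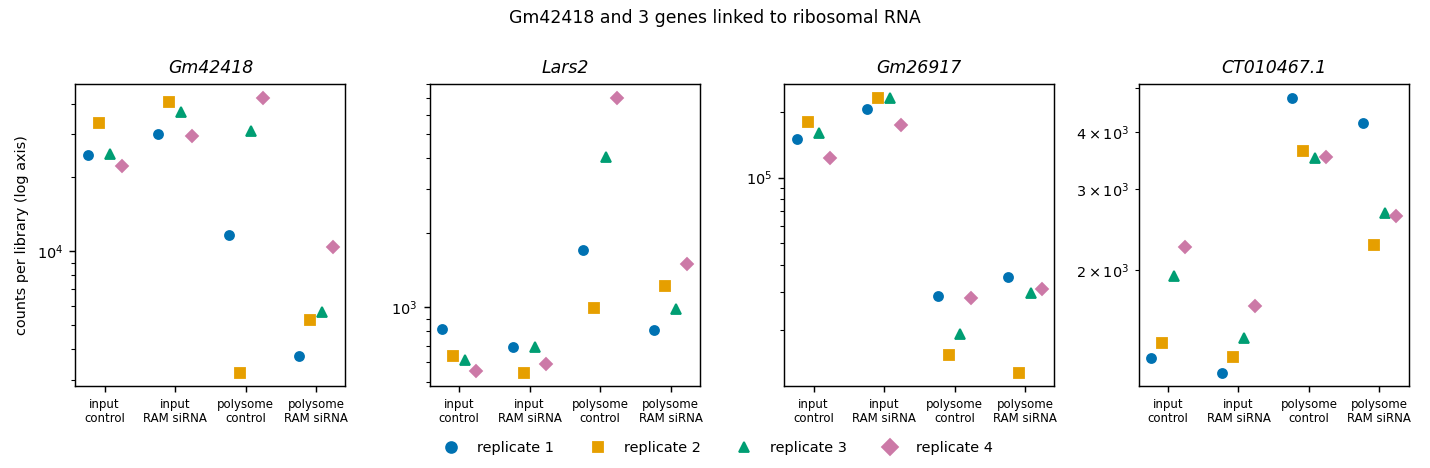
Counts per library of Gm42418 and of 3 genes linked to ribosomal RNA, on log axes that differ between panels, in the 4 groups. Points are libraries, coloured by replicate number. In control polysomes, Gm42418 and Lars2 are both lowest in replicate 2 (3200 and 994 counts) and highest in replicate 4 (42275 and 7043 counts), while Gm26917 is lowest in replicate 2 and highest in replicate 1, and CT010467.1 is highest in replicate 1.

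The last comparison asked whether RAM siRNA changed the level in polysomes relative to input. CPM are relative to the library total. A change of polysome loading shared by all RNAs is therefore not seen here or between the polysome libraries of the siRNAs. The study reports a lower ratio of polysomes to monosomes after RAM siRNA, and changed loading for few of the genes it analysed. Of the 12805 genes tested, 0 were called by edgeR's quasi-likelihood test, which is 0%, and 100 genes (0.781%) had an unadjusted p under 0.05. None of the 7 RNAs was among those 100. Over all genes, the likelihood ratio test called 1, DESeq2 1 and limma-voom 0, and each called 0 of the 7 RNAs. The largest differences were 0.82 for Kcnq1ot1 (SE 0.74, unadjusted p = 0.288) and -0.50 for Rmrp (SE 0.46, unadjusted p = 0.286). The others lay between -0.37 for Rpph1 and 0.33 for Neat1, with Malat1 and Rn7sk both at -0.03 and Terc at -0.26. With a replicate block within each fraction, 2 genes (0.0156%) were called, neither of them among the 7 RNAs, and 4.97% of all genes had an unadjusted p under 0.05. In that fit Kcnq1ot1 had a value of 0.78 (SE 0.20, unadjusted p = 0.00101, adjusted p = 0.423). Rpph1 (-0.36, unadjusted p = 0.0313) and Rmrp (-0.48, unadjusted p = 0.0353) were also under 0.05 before adjustment, each with an adjusted p of 0.955. Malat1, Neat1, Rn7sk and Terc were not. With the plain replicate block the unadjusted p was 0.166 for Kcnq1ot1, 0.269 for Rmrp and 0.543 for Rpph1. Gm42418, given as a description, had the lowest value of all genes tested, -2.24 (SE 0.74), and -1.82 with the replicate block within each fraction.

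The genes whose pattern over the 16 libraries was most like that of each RNA were found by the root mean square difference of log2 CPM centred on the gene's mean. For Malat1 the nearest named gene was Meg3 (0.29), followed by Firre (0.38). Neat1 was nearest to Mir17hg (0.29), the host transcript of a microRNA cluster, and to Rian (0.31). For Terc the nearest were the small RNA gene Gm25776 (0.21) and Snora73b (0.24), and Terc was in turn the second nearest gene to Rn7sk (0.37), after Gm22973 (0.35). Rpph1 was nearest to Rprl3 (0.43), an annotated relative of the RNase P RNA, and Rmrp to the small RNA gene Gm25395 (0.27). Kcnq1ot1 had no untranslated RNA among its 3 nearest genes. These were the mRNAs Macf1 (0.41), Ankrd11 (0.44) and Akap12 (0.44), with 31402, 16580 and 6461 bases of exons. Gm42418 had no close neighbour, with a difference of 0.70 from the nearest gene, C87436.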

How the data were processed

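Paired-end stranded RNA-seq libraries depleted of ribosomal RNA were made from cytoplasmic input and pooled polysome fractions. The authors mapped reads to GRCm38/mm10 with STAR 2.5.1b, used htseq-count to assign them to genes and deposited the raw counts, without normalization. The strand and overlap settings and the annotation release are not given in the sources used here. Of 46983 gene IDs, 46488 matched a symbol. The table held 0 columns of other samples, and libraries had 16647523 to 20147833 counts.

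Tests covered 12805 genes that reached 1 CPM or more in 10 or more libraries. This is the filter that the study names, although its number of genes differed slightly. Library sizes were scaled once by TMM over all 16 libraries. Each comparison was fitted over all these genes in edgeR 4.0.16 (R 4.3.3, glmQLFTest), with Benjamini-Hochberg adjustment at 0.05, and the standard error is the log2 fold change over the root of F. Gm42418 was fitted with all genes but, since its values served to choose it, is reported without a test in any comparison. The design had planned its test in polysomes against input. Exact two-sided permutation tests used log2(CPM + 0.5) and permuted the libraries of the 2 groups without regard to replicate number. Each siRNA had 4 cultures, done on separate occasions per the study. Without a block, the p-values measure the spread between the libraries of a group. Those fits took no account that an input and a polysome library came from the same culture. With a block, the p-values measure the spread left after the differences between replicate numbers.

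Same-numbered libraries deviated together over all genes in each comparison of 2 groups: the correlations were 0.236 to 0.488 (polysome and input, control), 0.294 to 0.651 (polysome and input, RAM siRNA), 0.315 to 0.639 (siRNAs, input) and 0.541 to 0.897 (siRNAs, polysomes). Replicate numbers from the labels were therefore also used as a block. Other alternatives were the likelihood ratio test, limma-voom (limma 3.58.1), DESeq2 1.42.0, other scalings and filters, an adjusted p under 0.01, replicates 1 and 2 or 3 and 4 alone, 1 fit of all libraries and each library left out. Similar copies were sought with blastn 2.17.0 at 90% identity over 75 bases, in transcripts under 2000 bases. The steps were tested on simulated data.

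The members and gene lists were chosen with earlier results of these data known. The genes named are the members, Ramac, Actb, the list genes past the threshold (at most 4 in each direction) and the 3 nearest patterns for each member. Lars2, CT010467.1, mt-Rnr1, mt-Rnr2, Kcnq1, Rnu12, Lncenc1 in polysomes, and Firre and Mirg with the block, were named after their values were seen.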

Additional observations from a re-analysis of the deposited data

Results flagged for a closer look

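A library that lies far from the other 3 of its group was looked for in the 32 groups of 4 CPM values (8 RNAs in 4 groups) by Dixon's gap test. Chance alone flags about 1 in 20 groups, and 2 of 32 were found. Rmrp in control polysomes was 184.4 CPM in replicate 4, where the other 3 libraries had 69.14 to 77.37 CPM. Rpph1 in RAM siRNA input was 5796 CPM in replicate 4, where the others had 2833 to 3185 CPM.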

How the results depend on the processing

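Malat1, Neat1, Rn7sk, Rmrp, Rpph1 and Terc kept the call lower in polysomes under all 24 alternatives in both siRNAs, as did Kcnq1ot1 in control cells. Scaling by library size alone moved all genes by -0.12 (control) and -0.11 (RAM siRNA) in polysomes against input, and no other scaling moved them by over 0.1 on the log2 scale.

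For RAM siRNA against control in input, 1 of 7 RNAs was called. The count was 0 at an adjusted p under 0.01, 0 in replicates 3 and 4 alone, 0 with all 16 libraries in one fit, 2 without a filter, 3 in replicates 1 and 2 alone and 4 with the replicate block. Leaving out 1 library gave 0 to 2, with 0 without control replicate 1 and 2 without control replicate 3 or RAM siRNA replicate 4. In polysomes 2 of 7 were called with the replicate block. The replicate block changed no other call than those given for Malat1, Terc, Rpph1 and Kcnq1ot1. Over all genes it raised the count of calls from 1658 to 5039 in input and from 3 to 1949 in polysomes. The input count of 1658 was 626 at an adjusted p under 0.01, 2642 and 0 in replicates 1 and 2 or 3 and 4 alone, 186 in 1 fit of all libraries and 929 to 2515 without 1 library. The polysome count of 3 was 1 at an adjusted p under 0.01, 190 with the likelihood ratio test, 300 with DESeq2, 18 and 35 with the filter in at least 4 libraries and with none, 0 in either pair of replicates, 453 in 1 fit of all libraries and 0 to 47 without 1 library.

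The sign of several small log2 fold changes turned, and the cause was not tested. For Gm42418 in control polysomes against input it was 0.66 in replicates 3 and 4 alone, and leaving out 1 library gave -0.72 to 0.19. For RAM siRNA against control in input, Neat1 was -0.026 with limma-voom, -0.00024 with DESeq2, -0.014 with RLE scaling, -0.021 with library size only, -0.019 with the 8 RNAs left out before scaling, -0.030 with the filter in at least 4 libraries, -0.054 with no filter, -0.020 with the replicate block, -0.032 in replicates 3 and 4 alone and -0.16 to 0.16 without 1 library. In replicates 3 and 4 alone Kcnq1ot1 was -0.058 and Rn7sk 0.085, and without 1 library they were -0.098 to 0.23 and -0.23 to 0.076, and Rpph1 was -0.061 to 0.37.

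For RAM siRNA against control in polysomes, Rmrp was 0.0088 with limma-voom, 0.026 with DESeq2, 0.011 with RLE, 0.047 with upper-quartile and 0.00019 with library-size scaling, 0.046 with TMM within the libraries of the fit, 0.028 with the 8 RNAs left out, 0.011, 0.041 and 0.013 with the filters in at least 4 libraries, at a mean of 10 CPM and with none, 0.011 with the replicate block and 0.027 in replicates 3 and 4 alone. Terc was -0.13 in replicates 3 and 4 alone. Without 1 library, Rn7sk was -0.41 to 0.17, Rmrp -0.27 to 0.45, Rpph1 -0.81 to 0.55 and Terc -0.19 to 0.23.

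For the change in polysomes relative to input, Malat1 was 0.013 with DESeq2 and with RLE scaling, 0.0022 with upper-quartile scaling, 0.028 with the 8 RNAs left out, 0.024 and 0.044 with the filter in at least 4 libraries and with none, and 0.036 in replicates 3 and 4 alone. Rn7sk was 0.0050 with DESeq2 and with RLE scaling, 0.0061 with upper-quartile scaling, 0.025 with the 8 RNAs left out, 0.020, 0.0012 and 0.038 with the filters in at least 4 libraries, at a mean of 10 CPM and with none, 0.0013 with the replicate block and 0.11 in replicates 1 and 2 alone. Without 1 library, Malat1 was -0.25 to 0.19, Rn7sk -0.36 to 0.23 and Rpph1 -1.06 to 0.30. The other values kept their direction.

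Polysome libraries limit the rare RNAs, with 84 to 204 counts of Terc and 36 to 195 of Neat1 per library.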
